A study of Xenopus tropicalis with 24 samples.

Results

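The genes described here are 8 genes of notochord and cartilage, read by their symbols from a table of 26531 genes: cnmd, acan, hapln1 and comp, which encode secreted or matrix proteins, and sox9, sox5, sox6 and tbxt, which encode transcription factors. All 8 symbols were found once each. They were measured in the tail and the intestine of tadpoles of the frog Xenopus tropicalis, and 7 of them had enough counts to be tested in the tail and 5 in the intestine.

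The notochord is a stiff rod of large vacuolated cells inside a collagen sheath, and it is the axial skeleton of the tadpole tail. Its cells and those of cartilage share much of their matrix: fibrils of type II collagen with types IX and XI, and aggregates in which aggrecan is held on hyaluronan by link protein. In mouse, Sox9 is required for cartilage to form, and Sox5 and Sox6, which lack an activating domain of their own, act with it at the enhancers of cartilage matrix genes. Brachyury, the product of tbxt, is a T-box factor that vertebrate embryos need for the notochord. During frog metamorphosis thyroid hormone drives the resorption of the tail, notochord included, while the intestine is remodelled and kept.

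Tadpoles of either genotype, TRDKO or wild type (WT), were taken at stage 54, and were either given T3, the active thyroid hormone, at 5 nM or left untreated, for 18 hours at 25 °C in both cases. In TRDKO tadpoles both thyroid hormone receptor genes are knocked out. The groups were thus TRDKO with T3, TRDKO control, WT with T3 and WT control, in each of the 2 organs, with 3 RNA-seq libraries of total RNA in each of the 8 groups. The labels do not state the lesion in the TRDKO line, nor whether a library came from 1 tadpole or from several. The p-values therefore measure the spread between libraries, which may be technical. The question the design addresses is which T3 responses need the receptors and which differ between the organs.

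The libraries held between 17577407 and 24699154 counted fragments. The counts of replicates 1 and 3 of the tail WT controls agreed within sampling noise (mean chi-square 1.01 per gene; the next lowest of the 24 replicate pairs compared had 1.05). These libraries were summed and counted as 1 sample, which leaves n = 2 in that group and n = 3 in the others. Replicate 3 of intestine TRDKO with T3 stood apart from its group (mean chi-square 22.8 and 27.6 per gene, at most 2.15 in all other pairs). Results of members whose test outcome changed without it are given with and without it, as are some others. The receptor genes were counted in every TRDKO library: thrb had medians of 48.0 CPM in TRDKO tails with T3, 25.3 CPM in TRDKO control tails, 51.7 CPM in WT tails with T3 and 6.97 CPM in WT control tails, and thra had 9.53, 6.90, 4.61 and 8.63 CPM in the same groups. In the intestine thrb had medians of 38.1 CPM in TRDKO with T3, 5.01 CPM in TRDKO control, 66.6 CPM in WT with T3 and 3.37 CPM in WT control, and thra had 12.5, 5.15, 7.55 and 10.2 CPM. Neither gene was at 0 in TRDKO, and with the lesion not stated the genotype labels could not be checked from them. The tissue labels fitted their markers: the 9 skeletal muscle markers summed to between 17942 and 26036 CPM in tail samples, and the 8 intestinal epithelium markers to a group mean between 4933 and 6762 CPM in the intestine. Levels are given in CPM, counts relative to library size, scaled for composition across both organs (TMM).

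In the tail, T3 lowered 4 of the 7 tested genes and raised 1 in TRDKO, where 26.2% of all tested genes fell and 26.7% rose, and it raised 4 and lowered 3 in WT, where 35.4% rose and 33.5% fell. Of the genes that passed in TRDKO tails 50.5% rose, a share that was 39.8% under upper-quartile scaling. The genes cnmd, hapln1, sox9 and tbxt rose with T3 in WT tails; of these cnmd, sox9 and hapln1 fell with T3 in TRDKO tails, and tbxt there did not pass. The gene acan fell with T3 in both genotypes, and sox6 fell in WT and rose in TRDKO. All 7 members passed for T3 against control in WT tails, where 68.9% of the 17018 tested genes passed at an adjusted p under 0.05 (edgeR quasi-likelihood test, Benjamini-Hochberg adjustment). In TRDKO tails 5 of 7 members passed for T3 against control, against 52.9% of all tested genes. The spread between tail libraries was small (biological coefficient of variation 1.68%), so most genes pass and the size of a change carries more than the call. With a change of at least 1.5-fold also asked, 4 of 7 members were called in WT tails, against 27.4% of all tested genes, and 1 of 7 in TRDKO tails, against 10.4%.

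Without T3, 6 of 7 members differed between TRDKO and WT tails, where 73.1% of all tested genes did. Here hapln1, sox9, acan and tbxt were higher in TRDKO, cnmd and sox6 were lower, and sox5 did not pass. After T3 all 7 differed, against 65.5% of all genes. The effect of T3 itself differed between the genotypes for all 7 members (interaction term, TRDKO effect minus WT effect), as it did for 65.6% of all tested genes. The comparison of T3 with control in WT tails and that of TRDKO with WT controls use the same WT control libraries, so their values are not independent of each other. In bulk tissue, fewer cells of a type and less RNA per cell cannot be told apart, and this holds for each result below.

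**Figure D1:**
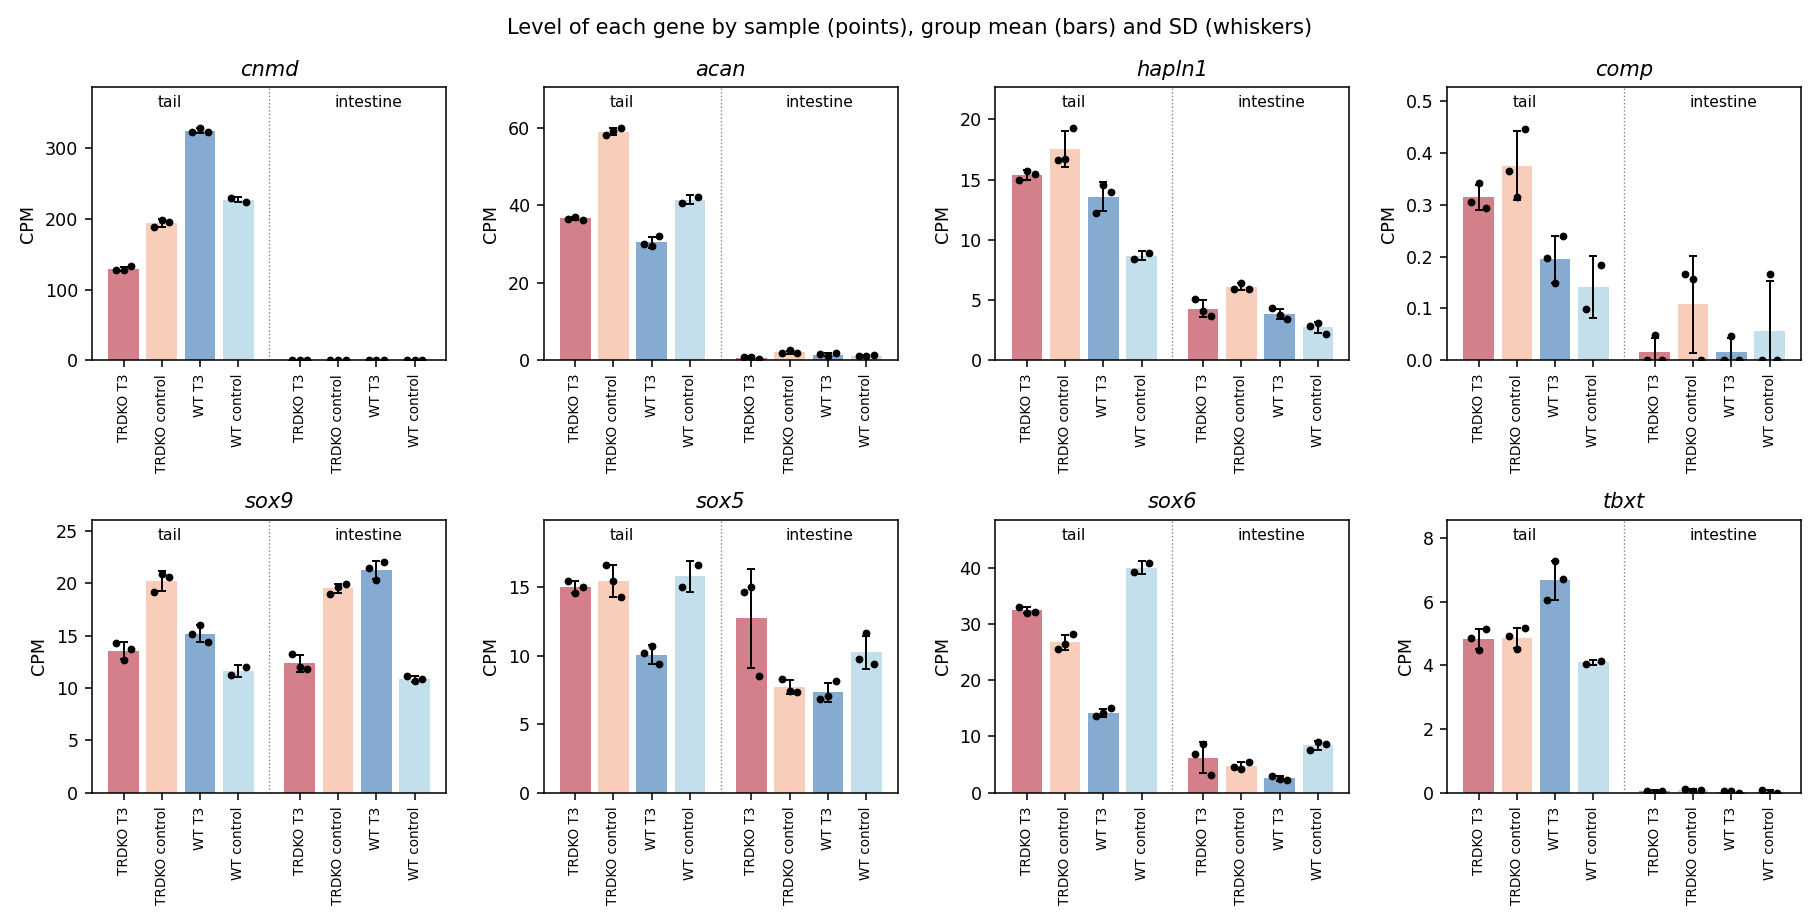
Levels of the 8 genes in CPM (vertical axes, 1 panel per gene) in the 8 groups, tail left and intestine right; bars are group means, points are samples and whiskers are SD, with n = 2 in tail WT control and n = 3 elsewhere. In the tail, cnmd samples lie between 128 and 133 CPM in TRDKO with T3, 189 and 199 CPM in TRDKO control, 324 and 329 CPM in WT with T3, and 225 and 230.4 CPM in WT control, with no overlap between groups.

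Chondromodulin, the product of cnmd, is a glycoprotein of cartilage matrix that in mammals inhibits the growth of blood vessels into it. The gene lies on chromosome 2, 132158552 to 132187972, plus strand, in the XENTR_10.0 assembly to which all positions here refer, and it was the most abundant of the 8 genes in the tail. It had 128, 128 and 133 CPM in TRDKO tails with T3, against 189, 199 and 195 CPM in TRDKO control tails. In WT tails with T3 it had 324, 329 and 324 CPM, against 230.4 and 225 CPM in WT control tails. Every sample of each group lay apart from every sample of the other 3 groups, with WT tails with T3 highest and TRDKO tails with T3 lowest. T3 lowered cnmd to 0.671 of the control level in TRDKO tails (log2 fold change -0.58 ± 0.025 SE, adjusted p = 3.47e-36) and raised it 1.44-fold in WT tails (0.52 ± 0.025, adjusted p = 2.26e-33). The interaction was -1.10 ± 0.035 on the log2 scale (adjusted p = 1.51e-45). Between genotypes, TRDKO tails held 0.858 of the WT level without T3 (adjusted p = 1.19e-12) and 0.400 of it with T3 (log2 -1.32 ± 0.024, adjusted p = 7.43e-64), the largest difference in size between T3-treated tails among the 7 members.

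Aggrecan, encoded by acan, is the large chondroitin sulfate proteoglycan that gives cartilage its resistance to compression. The gene lies on chromosome 3, 109814104 to 109880610, minus strand. It had 36.5, 37.0 and 36.3 CPM in TRDKO tails with T3, against 58.1, 59.2 and 59.9 CPM in TRDKO control tails. WT tails with T3 had 29.9, 29.4 and 32 CPM, against 40.7 and 42.3 CPM in WT control tails. The 4 groups did not overlap, and TRDKO controls were highest. T3 lowered acan in both genotypes, to 0.625 of control in TRDKO (log2 -0.68 ± 0.035, adjusted p = 2.67e-30) and to 0.744 of control in WT (-0.43 ± 0.046, adjusted p = 6.16e-14). The fall was larger in TRDKO by 0.25 on the log2 scale (interaction -0.25 ± 0.058, adjusted p = 9.95e-05), the smallest interaction among the 7. TRDKO tails exceeded WT tails 1.44-fold without T3 (adjusted p = 4.43e-22) and 1.21-fold with T3 (adjusted p = 4.31e-08).

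Link protein, encoded by hapln1, fastens aggrecan to hyaluronan. The gene lies on chromosome 1, 180812200 to 180890276, plus strand, and holds within its span the antisense locus LOC116407681; the authors counted by strand, so these loci were not pooled. It had 15, 15.8 and 15.4 CPM in TRDKO tails with T3, against 16.6, 16.7 and 19.3 CPM in TRDKO control tails. WT tails had 12.2, 14.5 and 14 CPM with T3, against 8.41 and 8.94 CPM in controls. The WT controls lay below all other tail samples. T3 raised hapln1 1.59-fold in WT tails (log2 0.67 ± 0.082, adjusted p = 1.09e-11), and in TRDKO tails the value was 0.887 of control (-0.17 ± 0.058, adjusted p = 0.0088), with an interaction of -0.85 ± 0.10 (adjusted p = 5.1e-12). That fall in TRDKO rested on 1 control library: without TRDKO control replicate 3 it was -0.10 (adjusted p = 0.179), and DESeq2 gave an adjusted p of 0.0529. TRDKO controls held 2.04 times the WT control level (1.03 ± 0.074, adjusted p = 1.37e-22), the largest genotype difference among untreated tails for the 7 tested members. After T3 the genotypes were closer, at 1.14-fold (0.19 ± 0.066, adjusted p = 0.0105), a call lost without WT T3 replicate 1 (0.12, adjusted p = 0.163), under DESeq2 (adjusted p = 0.0726) and in 1 fit of all 8 groups (adjusted p = 0.0618).

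Cartilage oligomeric matrix protein, encoded by comp, is a thrombospondin that binds collagen fibrils in cartilage and tendon. The gene lies on chromosome 1, 107072942 to 107121070, minus strand, and was close to the limit of detection. The libraries held 9, 10 and 8 fragments in TRDKO tails with T3, against 10, 8 and 11 in TRDKO control tails. WT tails with T3 held 4, 3 and 5, against 4 in the summed sample and 4 in the remaining library of WT control tails. These counts were below the filter, so comp was not tested in the fit. Ratios of summed counts were taken relative to library size scaled by TMM across both organs. Their exact 95% intervals cover counting error only. By this measure TRDKO over WT was 2.89 (1.29 to 7.33) in control tails and 1.61 (0.788 to 3.49) in T3-treated tails. The ratio of T3 to control was 0.840 (0.479 to 1.47) in TRDKO and 1.51 (0.568 to 4.26) in WT, and both intervals include 1.

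Sox9, the factor at the head of the cartilage programme in mouse, is encoded on chromosome 10, 30569409 to 30597270, plus strand. It had 14.3, 12.7 and 13.8 CPM in TRDKO tails with T3, against 19.1, 20.9 and 20.6 CPM in TRDKO control tails. In WT tails with T3 it had 15.1, 16 and 14.4 CPM, against 11.2 and 12 CPM in WT control tails. TRDKO controls were above, and WT controls below, every other tail sample, and the T3-treated groups lay next to each other. T3 lowered sox9 to 0.678 of control in TRDKO (log2 -0.56 ± 0.056, adjusted p = 1.36e-14) and raised it 1.33-fold in WT (0.41 ± 0.072, adjusted p = 5.67e-07), with an interaction of -0.97 ± 0.092 (adjusted p = 3.88e-16). In controls TRDKO exceeded WT 1.76-fold (0.82 ± 0.065, adjusted p = 3.52e-20). The difference between T3-treated tails, 0.899 of the WT level (-0.15 ± 0.064, adjusted p = 0.0316), did not hold in 3 of the fits that left out a library, nor under DESeq2 (adjusted p = 0.0876) or without the filter on low counts (adjusted p = 0.0652). It was -0.11 with TRDKO T3 replicate 2 removed (adjusted p = 0.19). Removing WT T3 replicate 1 gave -0.16 (adjusted p = 0.0578), and removing replicate 2 of that group gave -0.11 (adjusted p = 0.179).

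Sox6, a partner of Sox9 at mouse cartilage enhancers, moved the most with T3 in WT tails. The gene lies on chromosome 4, 2586555 to 2914323, plus strand. It had 33.0, 32.0 and 32.2 CPM in TRDKO tails with T3, against 25.6, 26.5 and 28.1 CPM in TRDKO control tails. In WT tails with T3 it had 13.6, 14.1 and 15 CPM, against 39.1 and 40.9 CPM in WT control tails. No group overlapped another, and WT was both the highest group, untreated, and the lowest, with T3. T3 lowered sox6 to 0.361 of control in WT (log2 -1.47 ± 0.055, adjusted p = 1.73e-40) and raised it 1.22-fold in TRDKO (0.29 ± 0.044, adjusted p = 1.91e-08); the interaction, 1.76 ± 0.071 (adjusted p = 2.94e-38), was the largest among the 7. TRDKO held 0.675 of the WT level without T3 (adjusted p = 8.5e-20) and 2.28 times the WT level with T3 (1.19 ± 0.054, adjusted p = 1.53e-34).

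Sox5, the other such partner and a close relative of Sox6, is encoded on chromosome 3, 1494206 to 1653672, minus strand. It had 15.5, 14.6 and 15 CPM in TRDKO tails with T3, against 16.6, 15.5 and 14.2 CPM in TRDKO control tails. WT tails with T3 had 10.2, 10.7 and 9.37 CPM, against 15 and 16.6 CPM in WT control tails. WT tails with T3 lay below the other 3 groups, whose ranges overlapped. T3 lowered sox5 to 0.652 of control in WT (log2 -0.62 ± 0.075, adjusted p = 1.21e-11). In TRDKO the value was -0.03 ± 0.059 and did not pass (adjusted p = 0.69), and the T3 effects differed between genotypes (0.59 ± 0.096, adjusted p = 1.11e-07). After T3, TRDKO held 1.5 times the WT level (0.58 ± 0.071, adjusted p = 1.04e-11).

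Brachyury is encoded by tbxt on chromosome 5, 55128624 to 55135774, minus strand. It had 4.87, 4.49 and 5.12 CPM in TRDKO tails with T3, against 4.91, 4.52 and 5.16 CPM in TRDKO control tails. In WT tails with T3 it had 6.05, 7.27 and 6.69 CPM, against 4.04 and 4.15 CPM in WT control tails. WT tails with T3 were above all other tail samples, and the TRDKO groups overlapped almost fully. T3 raised tbxt 1.65-fold in WT (log2 0.72 ± 0.11, adjusted p = 4.38e-08), the largest rise among the 7, and its interaction was -0.72 ± 0.15 (adjusted p = 3.01e-05). In T3-treated tails TRDKO held 0.727 of the WT level (-0.46 ± 0.10, adjusted p = 4.54e-05). The difference between control genotypes was at the edge of the test: 1.2-fold higher in TRDKO (0.26 ± 0.12, adjusted p = 0.0409), with no overlap between the groups. It did not pass under DESeq2 (adjusted p = 0.129), without the filter on low counts (adjusted p = 0.0544) or in 1 fit of all 8 groups (adjusted p = 0.0723). Removing replicate 1 or 3 of the TRDKO controls gave 0.26 (adjusted p = 0.0763) and 0.22 (adjusted p = 0.125). Removing replicate 1, 2 or 3 of the WT controls gave 0.27, 0.27 and 0.25, at adjusted p-values of 0.0661, 0.0677 and 0.0865.

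**Figure D2:**
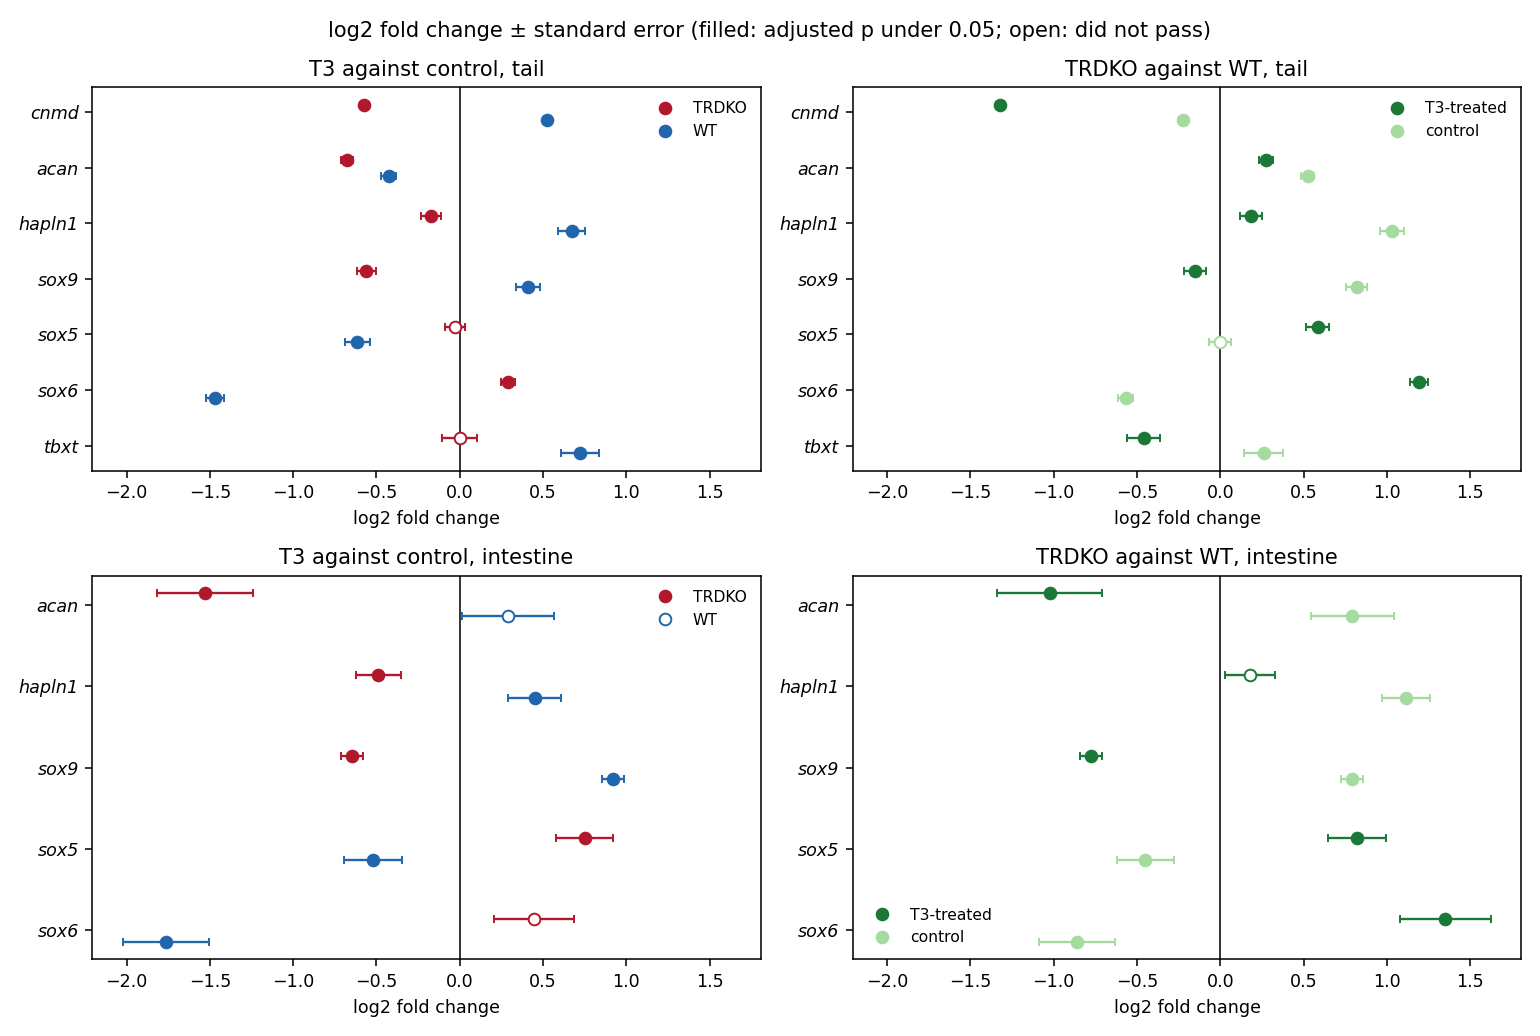
Log2 fold changes with SE (horizontal axes) of the tested members for T3 against control, by genotype, and for TRDKO against WT, by treatment; tail above with 7 genes, intestine below with 5, and filled points passed at an adjusted p under 0.05. In the tail the T3 effects of cnmd are -0.58 in TRDKO and 0.52 in WT, and those of sox6 are 0.29 in TRDKO and -1.47 in WT.

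To compare genes with each other, CPM were divided by exon length. On this scale cnmd was highest in all 4 tail groups, at 97.9 CPM per kb in TRDKO with T3, 147 in TRDKO control, 246 in WT with T3 and 172 in WT control, and comp was lowest, at 0.0833, 0.0995, 0.0517 and 0.0376. The other 6 lay between 1.19 and 7.35 CPM per kb. Their order changed between groups: after cnmd came sox6 in TRDKO with T3 (5.14), acan in TRDKO control (7.35), sox9 in WT with T3 (5.14) and sox6 in WT control (6.34). In TRDKO with T3, sox9 and acan (4.59 and 4.55) overlapped, as did hapln1 and tbxt (2.11 and 1.95). In TRDKO control sox5 and sox6 overlapped (4.38 and 4.24), and in WT with T3 sox5 and tbxt did (2.86 and 2.7).

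The ratios among the sox transcripts in whole tail therefore differed by group. Whether these transcripts came from the same cells was not tested. Per kb, the ratio of sox9 to sox6 in the tail was 0.894 ± 0.041 in TRDKO with T3, 1.61 ± 0.060 in TRDKO control, 2.28 ± 0.20 in WT with T3 and 0.620 ± 0.012 in WT control (mean ± SD over samples). Sox9 thus exceeded sox6 in TRDKO control and WT with T3, and was below it in the other groups. For sox5 to sox6 the same groups had 0.831 ± 0.013, 1.04 ± 0.13, 1.27 ± 0.13 and 0.707 ± 0.029. The ratio of acan to hapln1, whose products join in 1 aggregate, was 2.15 ± 0.045, 3.06 ± 0.22, 2.04 ± 0.19 and 4.33 ± 0.070. It was highest in WT controls.

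**Figure D3:**
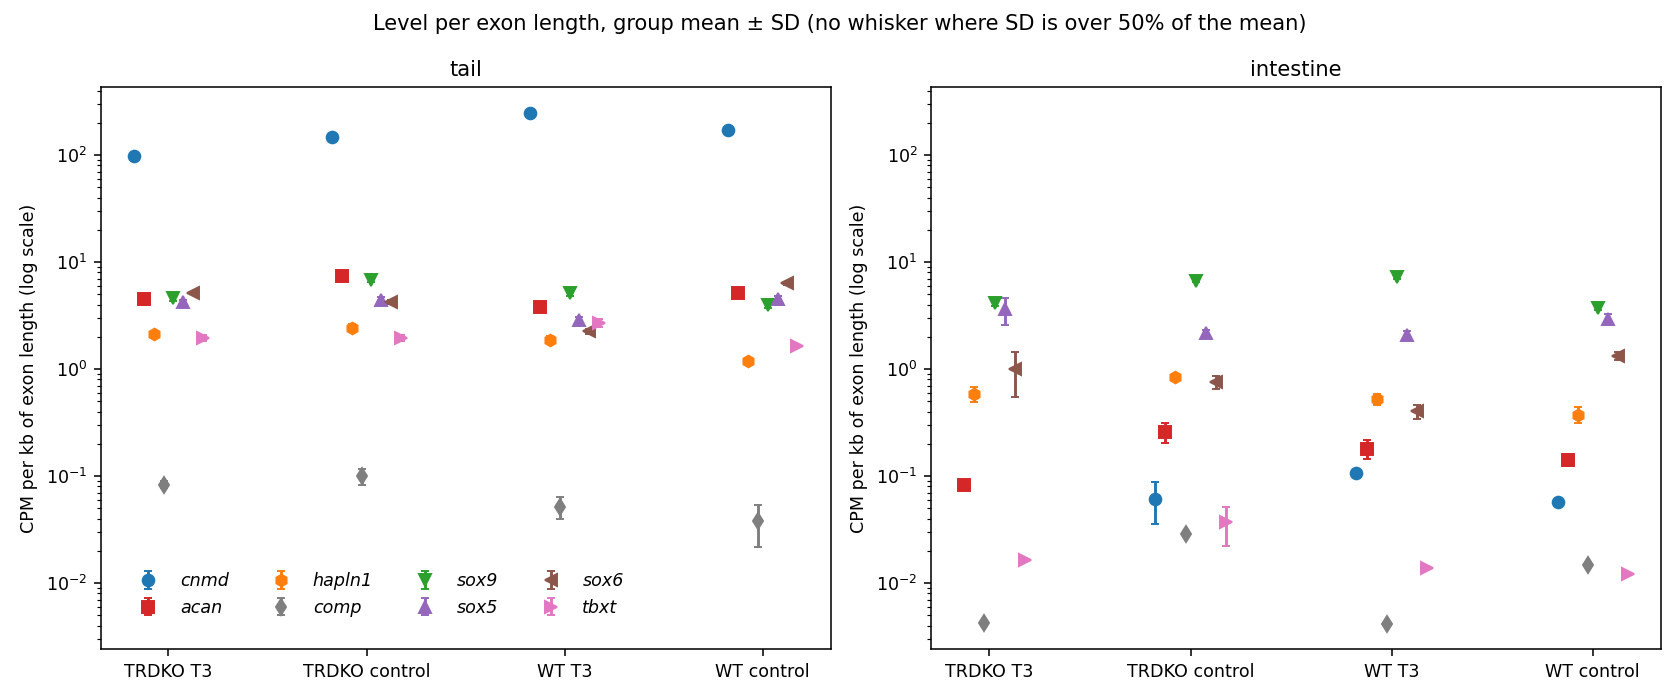
Group mean ± SD in CPM per kb of exon length (log axis) for the 8 genes, tail left and intestine right; whiskers are left out where the SD is over 50% of the mean, and cnmd at 0 in intestine TRDKO with T3 is not drawn. In every tail group cnmd lies between 97.9 and 246 CPM per kb, while in the intestine sox9 is highest, between 3.68 and 7.20.

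The wider matrix genes were taken from lists of known function, chosen with earlier results of these data known. The genes named from a list are among its largest changes, so their p-values are those of picked genes. List counts in the tail are to be read beside all tested genes. With T3, 26.2% of those fell and 26.7% rose in TRDKO, and 35.4% rose and 33.5% fell in WT. Of the same genes, 36.4% were higher and 36.6% lower in TRDKO than in WT controls. Of the cartilage collagens, 6 could be tested in the tail. T3 lowered all 6 in TRDKO (median log2 fold change -0.49), and in WT it raised 4 and lowered 2 (median 0.19). The median of all tested genes was -0.0036 for T3 in TRDKO tails, 0.02 for T3 in WT tails, 0.0067 for TRDKO against WT controls and -0.03 for the interaction. The T3 effect on 5 of the 6 was lower in TRDKO than in WT and on 1 higher (median interaction -0.61). Without T3, 1 was higher and 3 were lower in TRDKO than in WT (median -0.06, and 0.0030 under upper-quartile scaling). For col9a1, a chain of the type IX collagen on the surface of cartilage fibrils, the level was 577 ± 4.7 CPM in TRDKO tails with T3 against 903 ± 30 CPM in TRDKO control tails (log2 -0.64 ± 0.025, adjusted p = 5.04e-38). In WT it was 1149 ± 30 CPM with T3 against 833 ± 6.8 CPM in controls (0.47 ± 0.028, adjusted p = 4.88e-27). The main fibril collagen col2a1 stood at 1171 ± 27 CPM in T3-treated TRDKO tails against 1907 ± 79 CPM in T3-treated WT tails (-0.70 ± 0.028, adjusted p = 1.75e-38). Unlike these, col27a1 fell with T3 in WT, to 46.0 ± 1.7 CPM against 76.8 ± 2.1 CPM in controls (-0.74 ± 0.037, adjusted p = 3.62e-32).

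Of 20 tested cartilage proteoglycans and matrix proteins, T3 lowered 12 and raised 3 in TRDKO tails (median -0.19), and raised 14 and lowered 2 in WT tails (median 0.35). The interaction passed for 18 of them, 15 with a lower T3 effect in TRDKO and 3 with a higher one (median -0.51), where 33.4% and 32.2% of all genes did (49.1% of those that passed had a higher effect, and 39.5% under upper-quartile scaling). The gene ucma, which encodes a small secreted protein of cartilage, had 80.0 ± 2.4 CPM in TRDKO tails with T3 against 119 ± 4.6 CPM in TRDKO control tails (log2 -0.56 ± 0.027, adjusted p = 3.63e-32), and its interaction was -1.08 ± 0.039. For epyc, a small leucine-rich proteoglycan of cartilage, WT tails with T3 had 397 ± 11 CPM against 246 ± 2.9 CPM in WT control tails (0.70 ± 0.025, adjusted p = 7.5e-42). The 4 tested proteins that bind hyaluronan beside acan and hapln1 included vcan and hapln3, and here T3 lowered 3 in TRDKO (median -0.33) and raised 3 and lowered 1 in WT (median 0.35). For hapln3, a relative of hapln1, TRDKO controls had 157 ± 5.5 CPM against 73.9 ± 0.19 CPM in WT controls (1.10 ± 0.029, adjusted p = 5.98e-52). Large proteoglycan vcan had 279 ± 14 CPM in TRDKO controls against 155 ± 0.81 CPM in WT controls (0.86 ± 0.027, adjusted p = 1.51e-45).

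**Figure D4:**
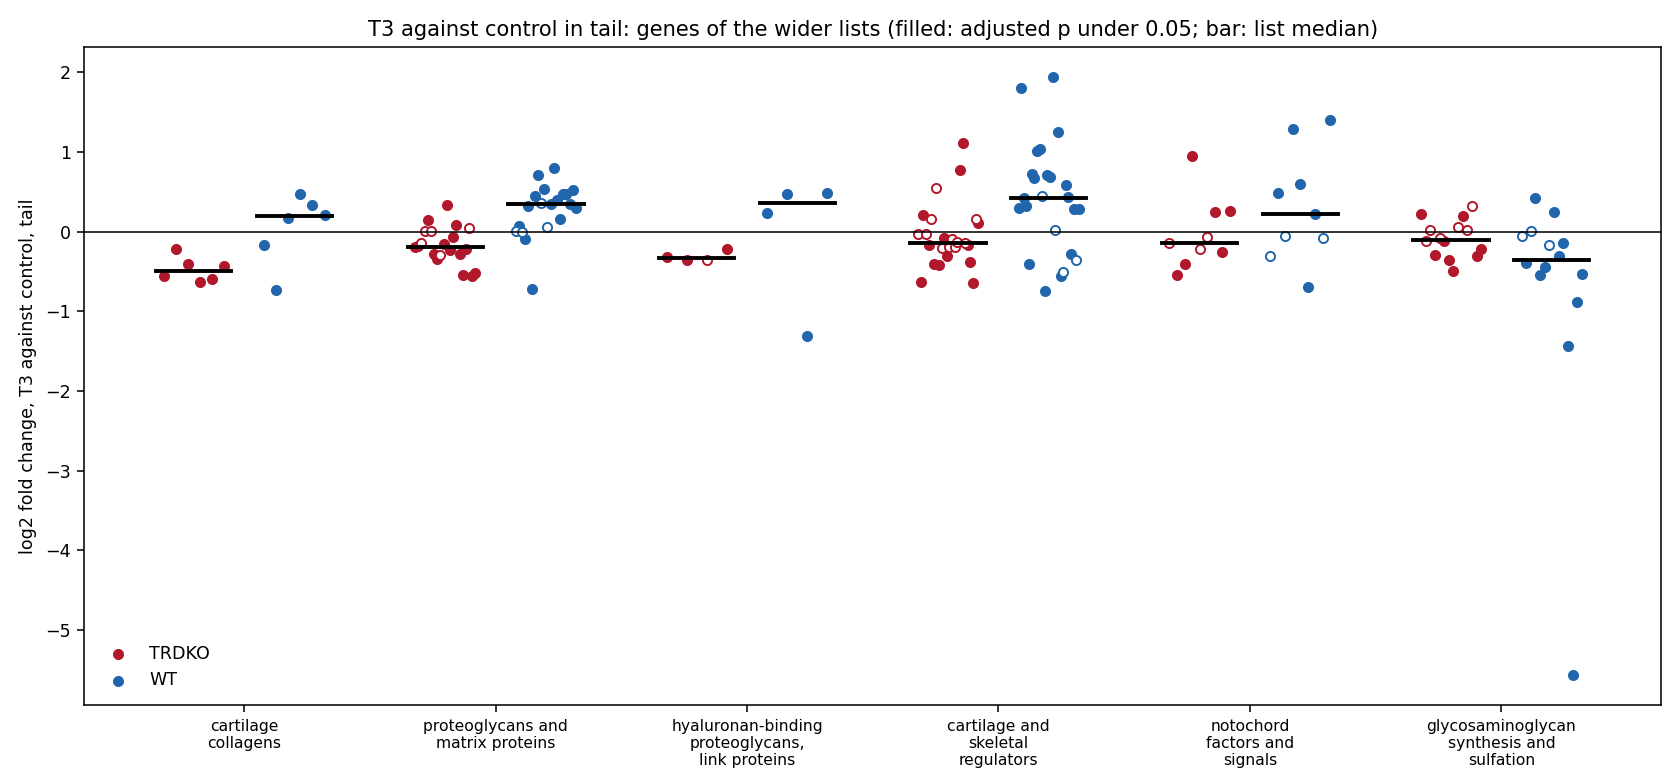
Log2 fold changes of T3 against control in TRDKO and WT tails (vertical axis) for the tested genes of 6 lists; each point is a gene and each bar the list's median. For the cartilage collagens the medians are -0.49 in TRDKO and 0.19 in WT, and for the regulators -0.14 in TRDKO and 0.43 in WT.

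Among 24 tested regulators of cartilage and skeleton, T3 raised 16 and lowered 4 in WT tails (median 0.43), and raised 4 and lowered 9 in TRDKO tails (median -0.14). Without T3, 15 were higher and 3 lower in TRDKO than in WT (median 0.58), against 36.4% and 36.6% of all genes. The homeobox gene barx2 had 11 ± 0.89 CPM in TRDKO tails with T3 and 17.2 ± 0.51 CPM in TRDKO control tails, and 15.5 ± 2.5 CPM in WT tails with T3 and 4.42 ± 0.25 CPM in WT control tails. Its T3 effect was -0.63 ± 0.068 in TRDKO and 1.80 ± 0.10 in WT (interaction -2.44 ± 0.12, adjusted p = 1.84e-29). The gene pax9, which encodes a paired-box factor made in the precursors of the mouse vertebral column, had 15.7 ± 0.25 CPM in WT tails with T3 against 4.01 ± 0.58 CPM in WT control tails (1.94 ± 0.091, adjusted p = 9.12e-34). TRDKO controls had 18.9 ± 0.74 CPM of pax9 (2.21 ± 0.084 over WT controls, adjusted p = 2.41e-40). The Sox9 relative sox8 had 4.99 ± 0.24 CPM in TRDKO tails with T3 against 7.81 ± 1.1 CPM in TRDKO control tails (-0.64 ± 0.097, adjusted p = 2.07e-08). Other regulators had higher group means with T3 in TRDKO tails. There runx1 had 6.91 CPM with T3 against 4.06 CPM in controls, and runx2 had 1.42 against 0.661 CPM. Of 9 tested notochord factors and signals, T3 raised 5 and lowered 1 in WT tails (median 0.22) and raised 3 and lowered 3 in TRDKO tails (median -0.14). Among these shh, the signal that notochord sends to the neural tube, had 11 ± 0.47 CPM in TRDKO tails with T3 against 13.3 ± 1.2 CPM in TRDKO control tails (-0.26 ± 0.066, adjusted p = 0.000518). Group means of other genes of this list moved both ways with T3 in TRDKO tails. Lower were foxa1, at 2.68 CPM with T3 against 3.94 CPM in controls, and foxa2, at 2.092 against 2.802 CPM. Higher were wnt11 (39.7 against 33.5 CPM), sall4 (24.7 against 20.9 CPM) and foxj1 (1.80 against 0.940 CPM). In WT tails wnt11 had 26.96 CPM with T3 against 10.29 CPM in controls.

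The machinery that builds sulfated chains on aggrecan went mostly down with T3 in WT tails: of 14 glycosaminoglycan genes 9 fell and 2 rose (median -0.35), while in TRDKO tails 6 fell and 2 rose (median -0.10). The same 14 genes summed to group means of 315 to 989 CPM in the intestine, where acan was scarce, against 192 to 302 CPM in the tail. Much of the intestine sums was papss2, with group means of 136 to 727 CPM there and at most 37.4 CPM in the tail. The genes chst11, chst12 and chpf were also higher in the intestine in every group. In contrast, papss1, csgalnact1, csgalnact2, chst3, chst13, chsy3 and xylt1 were higher in the tail in every group. The sums thus do not show that the set as a whole was higher in the intestine. The sulfate transporter gene slc26a2 had 2.60 ± 0.29 CPM in TRDKO tails with T3 and 2.09 ± 0.21 CPM in TRDKO control tails, and 1.36 ± 0.29 CPM in WT tails with T3 and 65.1 ± 1.4 CPM in WT control tails. It was high only in WT controls among the tail groups. The intestine had the same pattern, with 6.55 CPM in TRDKO with T3, 7.60 in TRDKO control, 6.39 in WT with T3 and 64.4 in WT control. Its log2 fold changes in the tail were -5.57 ± 0.082 for T3 in WT (adjusted p = 2.12e-71) and -4.95 ± 0.069 for TRDKO against WT controls (adjusted p = 4.49e-73), with an interaction of 5.89 ± 0.20. For papss2, which makes the activated sulfate donor, WT tails with T3 had 13.7 ± 1.4 CPM against 37.4 ± 1.3 CPM in WT control tails (-1.43 ± 0.059, adjusted p = 1.35e-37). Hyaluronan genes numbered 10 tested, of which T3 raised 7 and lowered 2 in TRDKO tails (median 0.46) and raised 7 and lowered 3 in WT tails (median 0.20). The synthase has2 had 22.8 ± 1.2 CPM in WT tails with T3 against 9.64 ± 0.32 CPM in WT control tails (1.26 ± 0.069, adjusted p = 1.94e-29).

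Of 11 tested proteases and inhibitors that act on cartilage matrix, T3 raised 7 and lowered 1 in TRDKO tails (median 0.18) and raised 5 and lowered 2 in WT tails (median 0.28). Without T3, 9 were higher and 2 lower in TRDKO than in WT (median 0.62), against 36.4% and 36.6% of all genes. The aggrecan-cutting enzyme gene adamts5 had 34.2 ± 1.6 CPM in TRDKO tails with T3 against 22.1 ± 2.2 CPM in TRDKO control tails (0.64 ± 0.048, adjusted p = 1.32e-20). The gelatinase gene mmp2 had 192 ± 5.3 CPM in TRDKO controls against 91.9 ± 0.50 CPM in WT controls (1.07 ± 0.028, adjusted p = 3.99e-52). The 4 thrombospondins, relatives of comp, split: T3 raised 1 and lowered 1 in TRDKO tails (median 0.04, and -0.00093 under upper-quartile scaling), and raised 2 and lowered 1 in WT tails (median 0.07). In WT tails thbs1 stood at 598 ± 11 CPM with T3 against 1109.6 ± 4.7 CPM in WT controls (-0.88 ± 0.026, adjusted p = 1.15e-47). In TRDKO tails thbs1 rose, with 830.3 ± 4.3 CPM with T3 against 569 ± 5.2 CPM in controls (0.56 ± 0.024, adjusted p = 7.54e-36).

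Markers of other cell types moved with the same comparisons in the tail. The 8 intestinal epithelium markers summed to 31.2 to 31.5 CPM in TRDKO tails with T3, 39.5 to 41.1 CPM in TRDKO control tails, 14.4 to 15.5 CPM in WT tails with T3 and 13.8 CPM in both WT control samples, where cdx1 and hnf4a were at 0. The markers vil1 and fabp2 had 7.0 and 16.9 CPM in TRDKO control tails, and at most 0.443 and 1.13 CPM in the other tail groups. Most of the sum in those other groups was lgr5 and olfm4. They had 12.7 and 15.1 CPM in TRDKO with T3, 12.5 and 0.801 CPM in WT with T3, and 10.2 and 2.32 CPM in WT control. In TRDKO control tails lgr5 and olfm4 had 8.55 and 0.488 CPM. The whole list summed to a group mean of at least 4933 CPM in the intestine. Of the 8, 6 were higher and 2 lower in TRDKO than in WT controls, and T3 in TRDKO raised 2 and lowered 6. The 6 erythrocyte markers, none at 0, summed to 81.7 to 84.5 CPM in TRDKO tails with T3, 134 to 141 CPM in TRDKO controls, 123 to 125 CPM in WT tails with T3 and 93.1 to 94.7 CPM in WT controls. All 6 fell with T3 in TRDKO, and 5 rose and 1 fell with T3 in WT. The 9 skeletal muscle markers summed to 17942 to 18914 CPM in TRDKO tails with T3, 19465 to 20811 CPM in TRDKO controls, 22531 to 24125 CPM in WT tails with T3 and 25046 to 26036 CPM in WT controls, and none was at 0. T3 lowered 7 of these 9 in TRDKO and 6 in WT and raised 0 and 1. The 10 tendon and bone markers, with dmp1 at 0 in all 4 groups and ibsp at 0 in all but TRDKO with T3, summed to 10843 to 11583, 12918 to 13820, 13366 to 14653 and 14504 to 15117 CPM in the same order of groups. Most of each sum was col1a1 and col1a2, at 6209 and 4678 CPM in TRDKO with T3 and 8541 and 6047 CPM in WT controls. In the same order of groups tnmd had 211, 283, 222 and 155 CPM, which is not the order of the sums. Nor was it for scx (13.2, 24.6, 20.6 and 14.8 CPM) or mkx (8.45, 9.28, 6.31 and 5.30 CPM). The part of these cell types in the results above was not tested.

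In the intestine, 5 of the members were high enough to test: sox9, sox5, sox6, hapln1 and acan. T3 against control passed for 4 of 5 in TRDKO (5 of 5 without the library that stood apart), against 40.9% of the 15491 genes tested, and for 4 of 5 in WT, against 60.5%. TRDKO against WT passed for 5 of 5 in controls, where 57.8% of genes did, and for 4 of 5 after T3, where 49.4% did. The interaction passed for all 5, against 52.3% of genes. In the intestine T3 raised sox9 and hapln1 and lowered sox5 and sox6 in WT, and lowered acan, sox9 and hapln1 and raised sox5 in TRDKO.

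Sox9, which in the vertebrate intestine is known from the proliferative epithelium, had 13.3, 12 and 11.8 CPM in TRDKO intestine with T3, against 19, 19.6 and 19.9 CPM in TRDKO control intestine. WT intestine had 21.4, 20.4 and 22.1 CPM with T3, against 11.2, 10.6 and 10.9 CPM in controls. All 4 groups lay apart. T3 lowered it to 0.639 of control in TRDKO (log2 -0.65 ± 0.066, adjusted p = 2.86e-06) and raised it 1.89-fold in WT (0.92 ± 0.066, adjusted p = 4e-08), with an interaction of -1.57 ± 0.093 (adjusted p = 8e-09). TRDKO controls exceeded WT controls 1.73-fold (0.79 ± 0.066, adjusted p = 1.84e-07).

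Sox6 had 6.97, 8.59 and 3.21 CPM in TRDKO intestine with T3, against 4.53, 4.29 and 5.50 CPM in TRDKO control intestine. WT intestine had 2.99, 2.36 and 2.31 CPM with T3, against 7.56, 9.02 and 8.64 CPM in controls. T3 lowered it to 0.294 of control in WT (log2 -1.76 ± 0.26, adjusted p = 4.95e-05). In TRDKO the groups overlapped through replicate 3 with T3, the library that stood apart: the change was 0.45 ± 0.24 (adjusted p = 0.159) with it and 0.74 (adjusted p = 1.4e-07) without it. The interaction, 2.21 ± 0.36 (adjusted p = 0.000153), was 2.5 without that library.

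Sox5 had 14.7, 15 and 8.52 CPM in TRDKO intestine with T3, against 8.31, 7.44 and 7.36 CPM in TRDKO control intestine. WT intestine had 6.86, 7.04 and 8.12 CPM with T3, against 9.75, 11.6 and 9.39 CPM in controls. T3 raised it 1.68-fold in TRDKO (log2 0.75 ± 0.17, adjusted p = 0.00278; 0.96 without replicate 3), and the interaction was 1.27 ± 0.24 (adjusted p = 0.000634). The fall with T3 in WT (-0.52 ± 0.18, adjusted p = 0.0194) did not pass once replicate 2 of the controls was removed (-0.42, adjusted p = 0.0912). Nor did it with replicate 1 or 2 of the T3 group removed (-0.48 and -0.49, at adjusted p-values of 0.0716 and 0.065). The lower level in TRDKO than in WT controls (-0.45 ± 0.17, adjusted p = 0.0375) was lost in 5 of the 6 fits that left out 1 library, with adjusted p-values of 0.0524 without TRDKO control replicate 1, 0.0923 without replicate 2, 0.101 without replicate 3, 0.0588 without WT control replicate 1 and 0.142 without replicate 2. It was also lost under upper-quartile scaling (-0.36, adjusted p = 0.083) and limma-voom (adjusted p = 0.0507).

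Hapln1 had 5.07, 4.11 and 3.68 CPM in TRDKO intestine with T3, against 5.90, 6.44 and 5.94 CPM in TRDKO control intestine. WT intestine had 4.32, 3.73 and 3.46 CPM with T3, against 2.87, 3.12 and 2.21 CPM in controls. TRDKO controls were highest and WT controls lowest, at a ratio of 2.17 (log2 1.11 ± 0.14, adjusted p = 1.62e-05). T3 lowered it in TRDKO (-0.49 ± 0.14, adjusted p = 0.0106; -0.39 without replicate 3), and the rise in WT (0.45 ± 0.16, adjusted p = 0.0243) was lost on removing replicate 3 of the controls (0.31, adjusted p = 0.122) or replicate 1 of the T3 group (0.36, adjusted p = 0.0987).

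Acan was scarce in the intestine, with 15, 19 and 4 fragments in TRDKO with T3, 44, 49 and 37 in TRDKO control, 27, 24 and 33 in WT with T3 and 25, 18 and 27 in WT control. T3 lowered it to 0.346 of control in TRDKO (log2 -1.53 ± 0.29, adjusted p = 0.000733), and to a log2 value of -1.21 without replicate 3 (adjusted p = 3.37e-05). In WT intestine the change with T3 was 0.29 ± 0.27 and did not pass (adjusted p = 0.38). TRDKO exceeded WT in controls (0.79 ± 0.25, adjusted p = 0.0147), a call lost on removing replicate 2 of the TRDKO controls (0.62, adjusted p = 0.0692) or of the WT controls (0.71, adjusted p = 0.0548). After T3 it was lower in TRDKO (-1.03 ± 0.32, adjusted p = 0.0154), a call lost without WT T3 replicate 3 (-0.88, adjusted p = 0.0641). Without TRDKO T3 replicate 3, which stood apart, that difference was -0.72 (adjusted p = 0.0214).

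The remaining members were at or near 0 in the intestine. Cnmd had 0, 0 and 0 fragments in TRDKO with T3, 1, 2 and 2 in TRDKO control, 4, 2 and 2 in WT with T3 and 4, 0 and 1 in WT control. Tbxt had 1, 0 and 1 fragments in TRDKO with T3, 3, 1 and 2 in TRDKO control, 1, 1 and 0 in WT with T3 and 2, 0 and 0 in WT control, and comp had between 0 and 4 per library. These counts were below the filter and not tested in the fit. Of the 12 ratios of summed counts for these 3 genes within the intestine, 11 had exact 95% intervals that include 1, before any allowance for their number. The other was cnmd in T3-treated intestine, with 0 fragments in TRDKO and 8 in WT (upper limit of the ratio 0.633). The wider matrix lists were also low in the intestine: the cartilage collagens summed to group means of 10.5 to 15.4 CPM there, against 2856 to 4821 CPM in the tail. Of the 10 matrix proteins tested in the intestine, 8 were higher and 0 lower in TRDKO than in WT controls (median 1.78), where 29.1% and 28.7% of all genes were (50.3% of those that passed were higher, and 61.4% under upper-quartile scaling). T3 lowered 6 and raised 1 of them in TRDKO (median -0.52; 5 and 1 without replicate 3), where 20.3% and 20.6% of all genes did so. Beside this, the skeletal muscle markers, which gut lacks, summed to 5.01, 7.71, 4.88 and 2.34 CPM in intestine TRDKO with T3, TRDKO control, WT with T3 and WT control, with all 6 tested being higher in TRDKO than in WT controls; their part in the result was not tested.

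Tail against intestine, about 85% of all genes differed in each group (85.6% in TRDKO with T3, 85.2% in TRDKO control, 84.7% in WT with T3 and 84.3% in WT control, of 17887), and 5, 6, 7 and 6 of the 7 tested members did. These counts include cnmd and tbxt, which were below the filter in the intestine and entered this fit through their tail counts. Their passing was thus fixed in advance and adds nothing to the counts. Acan was 51.7, 28.8, 21.1 and 36.0 times as high in the tail in the same order of groups, sox6 4.96, 5.59, 5.6 and 4.76 times, and hapln1 3.56, 2.88, 3.55 and 3.17 times. In TRDKO with T3 the log2 values were 5.69 for acan, 2.31 for sox6 and 1.83 for hapln1. Without intestine TRDKO T3 replicate 3 they were 5.37, 2.02 and 1.73. For cnmd in TRDKO with T3 the intestine group held 0 fragments. Counted against a floor of 3 fragments the tail was 2327 times as high, and the lower 95% limit of the ratio was 1892. Its ratio of summed counts was 2470 (95% interval 1058 to 7609) in TRDKO control, 2372 (1204 to 5496) in WT with T3 and 2796 (1198 to 8613) in WT control. Tbxt was 130.0 (35.8 to 1077), 51.5 (23.4 to 141), 195 (53.5 to 1612) and 125 (34.2 to 1037) times as high in the tail in the order above. These ratios rest on 2, 6, 2 and 2 fragments in the intestine groups. Counted against a floor of 3 fragments they were 86.7, 51.5, 129.7 and 83.2.

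Sox9 did not share this pattern. It was lower in the tail than in the intestine in WT with T3, at 0.714 of the intestine level (log2 -0.49 ± 0.064, adjusted p = 7.49e-08), and did not pass in the other 3 groups, where the ratios were 1.10, 1.04 and 1.06. Under upper-quartile scaling, which moved the median of all genes by 0.10 to 0.15 in these comparisons, those 3 did pass, at log2 values of 0.25 (adjusted p = 0.00167), 0.19 (adjusted p = 0.00448) and 0.18 (adjusted p = 0.0291). The first of them also passed, at 0.19 each, without intestine TRDKO T3 replicate 1 (adjusted p = 0.0238) or without tail TRDKO T3 replicate 2 (adjusted p = 0.0228). Over all 8 groups sox9 was highest in intestine WT with T3, whose range overlapped that of tail TRDKO control, and lowest in intestine WT control. Sox5 was 2.0, 1.37 and 1.54 times as high in the tail in TRDKO control, WT with T3 and WT control, and did not pass in TRDKO with T3 (1.16-fold, adjusted p = 0.11; 0.32 on the log2 scale and adjusted p = 0.0158 under upper-quartile scaling). That last value turned on the intestine TRDKO T3 libraries: it was -0.0092 (adjusted p = 0.911) without replicate 3, which stood apart, and 0.31 (adjusted p = 0.0396) and 0.34 (adjusted p = 0.0189) without replicate 1 or 2.

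The T3 effect differed between the organs for 2 of 7 members in WT, against 39.5% of genes, and for 2 of 7 in TRDKO, against 31.6%. The 7 include cnmd and tbxt, near 0 in the intestine, with SEs of 0.57 and 1.38 in WT and 1.32 and 0.95 in TRDKO. The test could show little for cnmd and tbxt. In WT the members that differed were acan (tail effect minus intestine effect -0.78 ± 0.23 log2, adjusted p = 0.00937) and sox9 (-0.57 ± 0.0995, adjusted p = 3.71e-05). Acan's difference did not pass without intestine WT T3 replicate 3 (-0.63, adjusted p = 0.063). In TRDKO they were acan (0.84 ± 0.25, adjusted p = 0.00987) and sox5 (-0.79 ± 0.18, adjusted p = 0.00124). Without intestine TRDKO T3 replicate 3, acan was lost (0.56, adjusted p = 0.0809), sox5 was -0.97, and sox6 passed at -0.43 (adjusted p = 0.00335).

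Last, named genes with a profile over the 8 groups most like each member were sought among 13119 genes with a mean of at least 1 CPM, by the root mean square difference of centred log2 group means. The tail and intestine contribute 4 group means each, so a gene with a strong organ contrast is matched mostly on that contrast. Nearest to cnmd were chad, myoz2 and col2a1 (differences of 0.280, 0.283 and 0.311 log2, over a profile SD of 5.25), of which chad encodes a cartilage matrix protein and col2a1 type II collagen, while myoz2 encodes a muscle protein. Nearest to acan were sox8, slc24a4 and nox4 (0.245, 0.253 and 0.268), the first a relative of sox9. For tbxt they were olfml3, b3galt5l and krt7 (0.183, 0.186 and 0.214), and among those nearest to hapln1 was kif26a (0.156). Among those nearest to sox6 were adamts9 and nin (0.264 and 0.272). The nearest were for sox9 adcy5, rassf4 and spock3 (0.177, 0.192 and 0.196), and for sox5 mical2, dsg2 and dync2h1 (0.129, 0.134 and 0.148). The profile SDs of sox9 and sox5 were 0.357 and 0.410, against 0.937 for hapln1 and 1.34 for sox6.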

How the data were processed

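Counts per gene were deposited by the authors as 1 table of raw fragment counts. Per the file headers they were made with featureCounts 2.0.1 on paired reads, reverse-stranded, with both ends mapped, primary alignments and no marked duplicates, on the XENTR_10.0 annotation; dropping duplicates can lower counts of abundant genes. Cutadapt 3.2 and STAR 2.7.7a are named in the submitters' processing notes, with no settings given in the sources used here. Stranded total RNA libraries were made from RNA of column kits, per the labels' protocols.

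From the counts, genes low in all groups were filtered (filterByExpr), libraries scaled by TMM, and contrasts tested with edgeR 4.0.16 (quasi-likelihood, robust; R 4.3.3) within each organ, or over both organs for organ contrasts, with Benjamini-Hochberg adjustment over all genes tested and a threshold of 0.05. The fit was tested on simulated data. CPM levels used a TMM scaling over all 23 samples, and CPM per kb divided them by the exon length in the table. Gene symbols were matched to RefSeq for 26530 of 26531 genes. The members and lists were chosen with earlier results of these data known. The genes named are all members and, of each list, up to 4 of the largest passing changes among genes reaching 1 CPM on average in the higher group, plus the 3 genes most like each member, some of which are not reported here. Intervals and floors (3 counts, 95%) cover counting error only. Alternatives were DESeq2 1.42.0, its size factors in edgeR, upper-quartile scaling, limma-voom 3.58.1, no filter, all 8 groups in 1 fit, the summed libraries kept apart, a replicate block and each library left out.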

Additional observations from a re-analysis of the deposited data

Results flagged for a closer look

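Some effects of T3 differed between groups by a test of the difference itself (edgeR interaction terms, log2 scale, adjusted p under 0.05). Between TRDKO and WT tails, 7 of 7 tested members did: acan -0.25, sox9 -0.97, sox5 0.59, sox6 1.76, hapln1 -0.85, cnmd -1.10 and tbxt -0.72, where 65.6% of all genes passed. Between TRDKO and WT intestine, 5 of 5 did: acan -1.82, sox9 -1.57, sox5 1.27, sox6 2.21 and hapln1 -0.94, where 52.3% of all genes passed. For these 5 genes the sign was the same in both organs. The estimates come from separate libraries, but the labels do not state whether both organs came from the same tadpoles. The share of all genes with the same sign in both organs is not given here, so the agreement is no result about the members. Whether the size of these effects differed between organs was not tested as a 3-way term. Without the intestine TRDKO T3 library that stood apart, the intestine values were -1.5 for acan, -1.52 for sox9, 1.48 for sox5, 2.5 for sox6 and -0.84 for hapln1, and all 5 passed. Between tail and intestine, T3 effects differed in WT for acan (-0.78) and sox9 (-0.57) and in TRDKO for acan (0.84) and sox5 (-0.79). Acan stood at 0.56 (adjusted p = 0.0809) in TRDKO without that library, and at -0.63 (adjusted p = 0.063) in WT without intestine WT T3 replicate 3.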

How the results depend on the processing

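Of 1542 recomputed log2 fold changes of members, 1495 kept their side of the threshold, 35 no longer passed and 12 newly passed. Of the 1495, 18 changed sign, all for values that passed in neither fit, and 0 called values reversed. Leaving out 1 library at a time gave 3 to 5 members called for TRDKO against WT control intestine (5 with all libraries; 3 without replicate 2 of either group), 2 to 4 for T3 in WT intestine (4; 2 without WT T3 replicate 1) and 1 to 2 for the organ difference of T3 in WT (2; 1 without intestine WT T3 replicate 3). It gave 5 to 7 for TRDKO against WT T3-treated tails (7 with all libraries), and 5 to 6 for control tails (6). For T3 in TRDKO it gave 4 to 5 in tails (5) and 4 to 5 in intestine (4). For TRDKO against WT T3-treated intestine it gave 3 to 4 (4). Tail against intestine in TRDKO with T3 gave 5 to 7 (5), and the organ difference of T3 in TRDKO gave 2 to 3 (2). The cause was not tested. Under upper-quartile scaling these list medians in the tail changed sign, all staying near 0: cartilage collagens 0.0030 (TRDKO against WT, control), thrombospondins -0.00093 (T3 in TRDKO), hyaluronan genes 0.016 (TRDKO against WT, control), -0.0097 (T3-treated) and -0.088 (interaction), proteases -0.064 (interaction), and tendon and bone markers 0.041 (T3 in WT). These list settings were chosen after seeing the data. Upper-quartile scaling also moved the share of higher calls from 50.5% to 39.8% for T3 in TRDKO tails, from 49.1% to 39.5% for the tail interaction and from 50.3% to 61.4% for TRDKO against WT control intestine. For the organ difference of T3 in TRDKO that share was 55.0%, against 41.5% with DESeq2 size factors, 44.0% without the filter and 41.0% with DESeq2. Without intestine TRDKO T3 replicate 3, more genes passed for T3 in TRDKO intestine (9004 against 6343).

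Libraries with the same replicate number showed almost no shared deviation (correlations -0.033 to 0.028), and the samples were not treated as paired. This cannot exclude a pairing, because most replicates differed little beyond sampling noise (mean chi-square at most 2.15 outside the library that stood apart). With the number as a block, 11731 genes passed for T3 in WT tails (11723 without), 8952 in TRDKO tails (8999), 12373 for TRDKO against WT control tails (12435) and 6060 for T3 in TRDKO intestine (6343), and no count of members changed. All 6 libraries correlated best with their own number for T3 in WT tail and in WT intestine, a hint from the data and not the design, and 0 to 4 of 6 did in the other 10 comparisons. Depth limits comp in both organs and cnmd, tbxt and acan in the intestine.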
